A study of Mus musculus with 9 samples.

Results

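The 10 genes followed here belong to the epithelial tight junction, and were measured in colon organoids of 2 genotypes with and without a ligand of the aryl hydrocarbon receptor (AHR). They are the claudins Cldn2, Cldn3, Cldn4, Cldn7, Cldn8, Cldn15 and Cldn23, and Ocln, Tjp1 and F11r. They were taken by name, through the mouse gene symbols of the GENCODE M21 annotation, from the 48795 genes of the table, and all 10 were among the 12741 genes with a mean of 10 or more normalised counts that entered the tests. The table holds 33 protein-coding claudin genes, 7 of them in this set.

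Organoids are epithelial cultures grown from crypts, here from the whole colon. Per the methods of the study the AHR KO mice carried Villin-Cre, which is active in the gut epithelium, with a floxed Ahr gene (Ahr fl/fl), the WT mice were littermates, and all were C57BL/6. Age was not given in the sources used here. All cultures were kept in WENR, a stem cell medium with Wnt-3A, EGF, Noggin and R-spondin 1. Per the methods it also held SB202190, the ALK5 inhibitor A83-01 and nicotinamide. The cultures were treated for 4 h with DMSO, the solvent, or with 5 nM FICZ, a tryptophan-derived AHR ligand. The groups were WT DMSO (n = 2, replicates 2 and 3), WT FICZ (n = 3, replicates 1, 2 and 3), AHR KO DMSO (n = 2, replicates 1 and 3) and AHR KO FICZ (n = 2, replicates 1 and 3). The methods speak of 3 biological replicates but the labels do not tie libraries to animals, so the p-values measure the spread between these libraries only.

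Tight junctions seal the space between neighbouring epithelial cells near their apical side. Claudins are membrane proteins with 4 membrane-spanning segments whose extracellular loops meet across the gap and set which ions pass: some form barriers and others form pores. Occludin and junctional adhesion molecules lie in the same strands or beside them, and zonula occludens proteins tie them to the actin cytoskeleton from inside the cell. In the gut, claudin 2 and claudin 15 are the best known pore-forming members for cations, claudin 2 being typical of crypts and of immature epithelium.

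The values are normalised counts as deposited, with library totals from 23177058 to 25033827. Whole reads could not be recovered from them, so the depth in reads behind each value is unknown. Across genes, libraries of 1 group correlated at r = 0.986 to 0.991 and libraries of different groups at 0.964 to 0.983. All 9 epithelial markers were present, with a summed level of 348384 to 368070 in WT DMSO, 349716 to 378233 in WT FICZ, 336432 to 338841 in AHR KO DMSO and 332555 to 355379 in AHR KO FICZ. No marker of fibroblasts, endothelium, smooth muscle or glia exceeded 5.50 in any library. The 6 immune markers summed to between 476 and 713, nearly all of it Cd68, and those other than Cd68 summed to at most 2.18. Cyp1a1, the classical AHR target, averaged 2.92 in WT DMSO and 7581 in WT FICZ, against 1.46 in AHR KO DMSO and 119.6 in AHR KO FICZ. Its mean was thus higher with FICZ in AHR KO as well, and the cause was not tested. Ahr itself was not lower in the libraries labelled AHR KO: it averaged 822 in WT DMSO and 1375 in AHR KO DMSO, a log2 difference of 0.74 (limma adjusted p = 0.000194). Which part of the gene the floxed allele removes is not stated in the sources used here, so that a count over the whole gene does not check the deletion, and AHR KO stands below for the libraries so labelled. In bulk RNA, fewer cells of a type and less RNA per cell cannot be told apart.

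The genes lie on 8 chromosomes of the build GRCm38. Cldn3 (chr5:134986214-134987472, plus strand) and Cldn4 (chr5:134945119-134946934, minus strand) point away from each other, with 39.3 kb between their start sites and 0 genes wholly between them, and Cldn15 (chr5:136966616-136975858, plus strand) begins 1.98 Mb beyond the end of Cldn3. Cldn2 lies at chrX:139800828-139811386, Cldn7 at chr11:69964779-69967885, Cldn8 at chr16:88560828-88563183, Cldn23 at chr8:35824712-35826559, Ocln at chr13:100496507-100552718, Tjp1 at chr7:65296165-65527781 and F11r at chr1:171437535-171464603. An antisense gene, Wbscr25, overlaps the end of Cldn3 but did not exceed 3.77 normalised counts in any library.

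The bases just upstream of the start sites of Cldn2, Cldn3 and Cldn4 are shown because Cldn2 differed most between the genotypes, because the FICZ changes of Cldn3 were called in both genotypes, and because Cldn4 is the head-to-head neighbour of Cldn3. Each is the 250 bases before the start in the RefSeq table of GRCm38.p6, on the strand of the gene, with capitals marking 4 motifs that were searched on both strands. These were GCGTG, the core bound by AHR with its partner ARNT, the longer TNGCGTG that contains it, GGAATG, a form bound by TEAD factors, and TTTATG, a form bound by the intestinal factor CDX2. The windows lie at chrX:139800558-139800807 (plus strand), chr5:134985964-134986213 (plus strand) and chr5:134946935-134947184 (minus strand).
Cldn2: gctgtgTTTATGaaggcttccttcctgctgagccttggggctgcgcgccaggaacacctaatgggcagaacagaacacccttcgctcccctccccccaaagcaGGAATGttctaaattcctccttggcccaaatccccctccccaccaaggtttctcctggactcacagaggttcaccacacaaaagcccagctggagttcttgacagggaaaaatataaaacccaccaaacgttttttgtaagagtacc
Cldn3: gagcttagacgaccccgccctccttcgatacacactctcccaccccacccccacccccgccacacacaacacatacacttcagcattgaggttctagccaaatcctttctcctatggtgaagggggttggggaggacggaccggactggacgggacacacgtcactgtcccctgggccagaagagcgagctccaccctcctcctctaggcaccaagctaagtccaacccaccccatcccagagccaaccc
Cldn4: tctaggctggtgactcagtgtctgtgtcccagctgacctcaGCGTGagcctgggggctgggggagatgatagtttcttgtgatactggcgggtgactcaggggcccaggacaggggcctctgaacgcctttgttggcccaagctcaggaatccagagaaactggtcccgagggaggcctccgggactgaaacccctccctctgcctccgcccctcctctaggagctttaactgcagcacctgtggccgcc
The Cldn2 window held TTTATG beginning 244 bases and GGAATG beginning 147 bases before the start, the Cldn3 window held none of the 4 motifs, and the Cldn4 window held GCGTG beginning 209 bases before the start. Windows were found for 8 of the 10 genes, all but Cldn8 and Cldn23, and numbered 10 because Cldn7 and Ocln have 2 each. GCGTG lay in 6 of the 10 windows (Cldn4, F11r, both of Cldn7 and both of Ocln) against 28.2% of all 32851 windows, TNGCGTG in 1 (Ocln) against 4.10%, GGAATG in 3 (Cldn2, Cldn7 and Cldn15) against 12.6%, and TTTATG in 1 (Cldn2) against 10.8%. A match describes letters in a window and is no evidence of binding, and a window without one says nothing of the factor.

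Of the members, the pore-forming claudins had the widest called differences between the genotypes. Under FICZ, Cldn8 differed by 1.1596 on the log2 scale without a call, close in size to Cldn15 (-1.201). Cldn2 was the gene with the widest difference of the set, with higher values in AHR KO, and Cldn15 differed in the opposite direction. Under DMSO, Cldn2 stood at 191 and 236 normalised counts in the WT libraries and at 1360.4 and 1165 in the AHR KO libraries. Under FICZ it stood at 134, 117 and 175 in WT and at 1233 and 1201 in AHR KO. Every AHR KO library lay above every WT library under both treatments.

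Cldn2 was higher in AHR KO by 2.56 on the log2(value + 1) scale under DMSO (SE 0.18, 95% interval 2.17 to 2.95, a 5.90-fold difference, limma adjusted p = 5.2e-05). Under FICZ the difference was 3.11 (SE 0.16, interval 2.76 to 3.47, 8.65-fold, limma adjusted p = 1.67e-06). In WT, Cldn2 fell with FICZ, from 214 ± 31.6 (SD, n = 2) to 142 ± 29.7 (SD, n = 3), with all 3 FICZ libraries below both DMSO libraries. That change was -0.60 on the log2 scale (SE 0.16, limma adjusted p = 0.018), and it missed the threshold without WT DMSO replicate 3 (-0.45, adjusted p = 0.144) and when only the 2 groups compared entered the fit (adjusted p = 0.0588). In AHR KO the mean went from 1263 ± 138 to 1217 ± 22.3 (n = 2 each) and the groups overlapped (-0.05, interval -0.44 to 0.34, limma adjusted p = 0.875). The difference between both FICZ changes was -0.55 (interval -1.08 to -0.02, unadjusted p = 0.0422, limma adjusted p = 0.641) and was not called.

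Cldn15, the other cation pore former and a major claudin of the small intestine, stood at 1236 and 1261 in WT DMSO and at 520.3 and 525 in AHR KO DMSO. Under FICZ it stood at 1608, 1411 and 1415 in WT and at 793 and 518 in AHR KO. No AHR KO library reached any WT library. The log2 difference between genotypes was -1.25 under DMSO (SE 0.16, interval -1.60 to -0.90, 2.39-fold lower in AHR KO, limma adjusted p = 0.00111) and -1.201 under FICZ (SE 0.14, interval -1.52 to -0.88, 2.30-fold lower, limma adjusted p = 0.000264).

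FICZ did not give a called change of Cldn15 in either genotype. In WT the log2 difference was 0.24 (interval -0.08 to 0.56, limma adjusted p = 0.233), with the 3 FICZ libraries above both DMSO libraries, and it passed without AHR KO FICZ replicate 1 or 3 (adjusted p = 0.0351 and 0.0338), which enter only through the shared spread, and when only the 2 groups compared entered the fit (adjusted p = 0.0499). In AHR KO it was 0.29 (interval -0.06 to 0.64, adjusted p = 0.216), and this value turned on 1 library: it was -0.013 without AHR KO FICZ replicate 1 and 0.60 (adjusted p = 0.0125) without replicate 3. With the trend on GC content and transcript length removed from each library, the FICZ changes of Cldn15 were 0.12 in WT and 0.17 in AHR KO. Neither was called (limma adjusted p = 0.613 and 0.619). Where leaving out a library left a group of 1, for Cldn2 above and in all other results, that library was assumed to vary like the other groups.

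**Figure D1:**
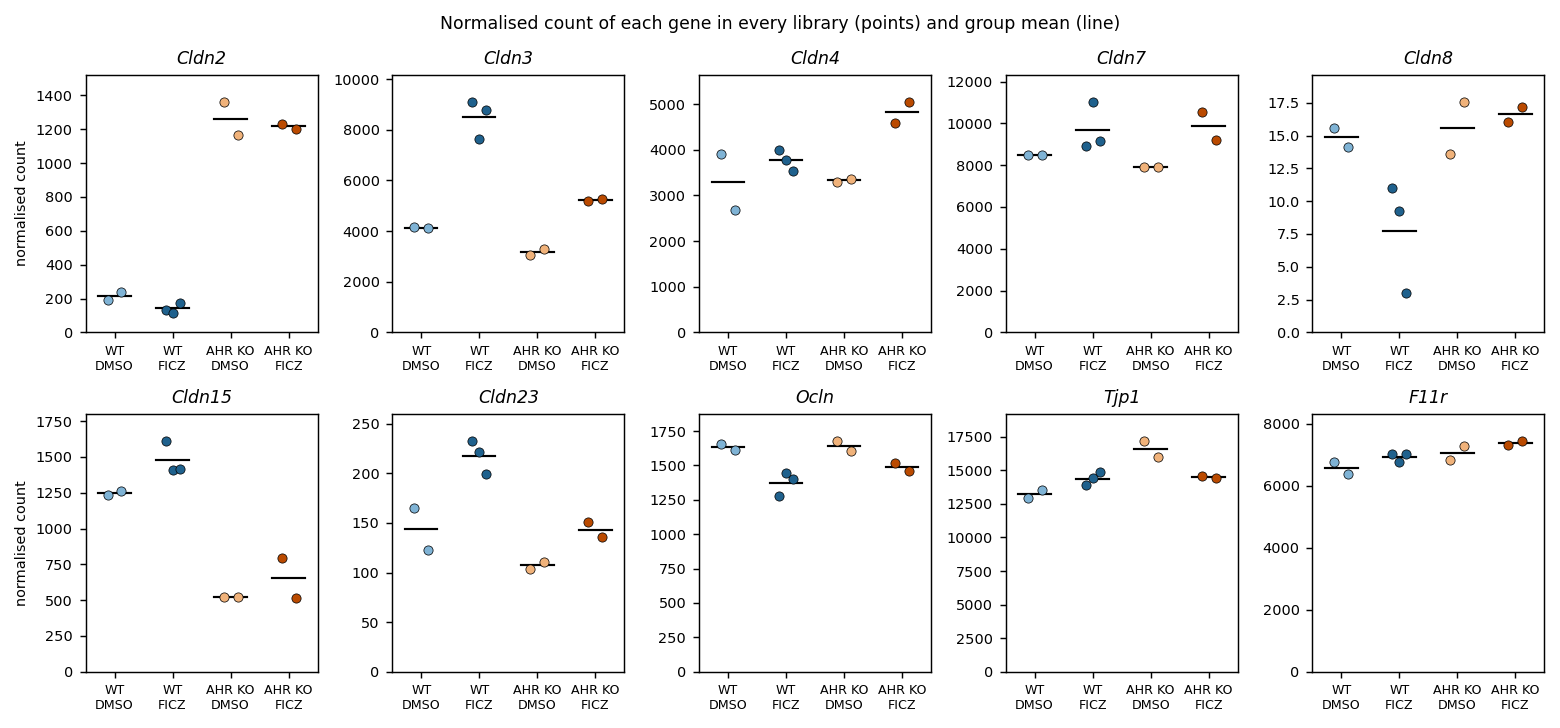
Normalised counts (linear axis from 0, its own in each panel) of the 10 genes in the 4 groups, with 1 panel a gene, 1 point a library and a line at the mean of each group. Cldn2 lies between 1165 and 1360.4 in the 4 AHR KO libraries and between 117 and 236 in the 5 WT libraries, and Cldn15 is ordered the other way.

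The order of the 2 pore formers differed between the genotypes in all libraries but AHR KO FICZ replicate 1. Per kb of the longest transcript, Cldn2 was 0.0968 and 0.117 times Cldn15 in the WT DMSO libraries, and 1.63 and 1.39 times Cldn15 in the AHR KO DMSO libraries. Under FICZ the ratio was 0.0520, 0.0518 and 0.0772 in WT and 0.971 and 1.45 in AHR KO. The sum of both per kb overlapped between genotypes, at 712.7 to 740.3 in WT DMSO against 658.7 to 720.4 in AHR KO DMSO, and at 780.2 to 889.5 in WT FICZ against 666.9 to 822.0 in AHR KO FICZ. The ratio and the sum were computed after the values of both genes had been seen and carry no test.

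Among the barrier-forming claudins, Cldn3 was the one whose FICZ change was called in both genotypes in the main fit. Cldn3, a sealing claudin found along the whole gut, stood at 4152 and 4107 in WT DMSO and at 9090.2, 7636 and 8783 in WT FICZ. In AHR KO it stood at 3051 and 3279 under DMSO and at 5190.3 and 5261 under FICZ. The FICZ libraries of each genotype lay above all of its DMSO libraries, and AHR KO lay below WT under each treatment.

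Cldn3 rose by 1.04 on the log2 scale with FICZ in WT (SE 0.07, interval 0.88 to 1.197, 2.05-fold, limma adjusted p = 3.12e-05) and by 0.72 in AHR KO (SE 0.08, interval 0.55 to 0.90, 1.65-fold, limma adjusted p = 0.00143). Both calls held under every alternative tried, but Cldn3 transcripts are rich in GC (62.7%), and with the trend on GC content and transcript length removed from each library the rises were 0.57 (adjusted p = 8.4e-05) and 0.27 (adjusted p = 0.0174). The difference between both changes was 0.31 (interval 0.08 to 0.55, unadjusted p = 0.0142, adjusted p = 0.447). AHR KO was lower than WT by a log2 difference of -0.70 under FICZ (SE 0.07, limma adjusted p = 0.0001) and of -0.38 under DMSO (SE 0.08, limma adjusted p = 0.0139). The call under DMSO was lost without any 1 of the 4 DMSO libraries, at -0.44 to -0.33 with adjusted p = 0.0536 to 0.111.

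Cldn4, a sealing claudin and receptor for a clostridial toxin, stood at 3911 and 2669.6 in WT DMSO, at 4001, 3774 and 3531 in WT FICZ, at 3304 and 3355 in AHR KO DMSO and at 4595 and 5042 in AHR KO FICZ. Its WT DMSO libraries lay farther apart than those of any other group, with an SD of 878 on a mean of 3291, and they spanned the AHR KO DMSO libraries. With FICZ, Cldn4 rose in AHR KO by 0.53 (SE 0.14, interval 0.22 to 0.84, 1.45-fold, limma adjusted p = 0.0267), a call that was lost without any 1 of the 4 AHR KO libraries (adjusted p = 0.0597 to 0.141) and with the GC and length trend removed (0.32, adjusted p = 0.228). In WT the change was 0.22 (interval -0.07 to 0.51, adjusted p = 0.223), and it was 0.50 (adjusted p = 0.00781) without WT DMSO replicate 2 and -0.055 without replicate 3. Its genotype differences were 0.04 under DMSO (adjusted p = 0.889) and 0.35 under FICZ (interval 0.07 to 0.64, adjusted p = 0.0795). The latter passed without WT DMSO replicate 2 or 3 (adjusted p = 0.0061), libraries that enter it only through the shared spread, and when only the 2 groups compared entered the fit (adjusted p = 0.0155).

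Cldn7, a claudin that lies along the sides of colon cells as well as at the junction, stood at 8470.4 and 8461 in WT DMSO, at 8909, 11012 and 9149 in WT FICZ, at 7899 and 7916 in AHR KO DMSO and at 10546 and 9216 in AHR KO FICZ. All FICZ libraries lay above the DMSO libraries of their genotype. The change was 0.32 in AHR KO (SE 0.10, interval 0.10 to 0.53, 1.25-fold, limma adjusted p = 0.0443) and 0.19 in WT (interval -0.01 to 0.39, adjusted p = 0.134). The change in WT was called with quantile normalization (0.25, adjusted p = 0.0422). It was -0.0055 (adjusted p = 0.978) with the GC and length trend removed, and lay between 0.093 and 0.25 without 1 library. The call in AHR KO was lost without any 1 of 7 libraries, all but WT FICZ replicates 1 and 2 (adjusted p = 0.0505 to 0.215), and with the GC and length trend removed (0.12, adjusted p = 0.629), and held in 10 of 20 alternatives in all. Between genotypes Cldn7 differed by -0.10 under DMSO (interval -0.31 to 0.12) and by 0.03 under FICZ (interval -0.17 to 0.23).

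Cldn8, a sealing claudin of the distal colon, was close to the filter. It stood at 15.6 and 14.1 in WT DMSO, at 10.97, 9.25 and 2.997 in WT FICZ, at 13.6 and 17.5 in AHR KO DMSO and at 16.0 and 17.2 in AHR KO FICZ. The WT FICZ libraries lay below all other libraries, and they were also the most spread, with a coefficient of variation of 54.2%. No contrast of Cldn8 was called. Its FICZ change in WT was -1.01 (SE 0.49, interval -2.09 to 0.08, limma adjusted p = 0.146) and its genotype difference under FICZ was 1.1596 (interval 0.07 to 2.25, adjusted p = 0.126). Leaving out 1 library moved these to between -1.31 and -0.52 and to between 0.67 and 1.46.

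Cldn23, whose gene is a single exon on chromosome 8 and whose product is more typical of differentiated surface cells, stood at 166 and 122 in WT DMSO, at 232, 222 and 199.5 in WT FICZ, at 103 and 111 in AHR KO DMSO and at 151 and 135 in AHR KO FICZ. FICZ libraries lay above the DMSO libraries of their genotype. The rise was 0.61 in WT (SE 0.15, interval 0.27 to 0.95, 1.52-fold, limma adjusted p = 0.0144), and it missed the threshold without WT DMSO replicate 3 (0.39, adjusted p = 0.137) or with the GC and length trend removed (0.47, adjusted p = 0.059). In AHR KO the change was 0.42 (interval 0.04 to 0.79, adjusted p = 0.11). AHR KO was lower than WT by a log2 difference of -0.60 under FICZ (SE 0.15, 1.52-fold lower, limma adjusted p = 0.0207). That call was lost without WT FICZ replicate 1 (-0.55, adjusted p = 0.0667), AHR KO FICZ replicate 1 (-0.68, adjusted p = 0.0519) or AHR KO FICZ replicate 3 (-0.52, adjusted p = 0.14). Under DMSO the difference was -0.41 (interval -0.78 to -0.03, adjusted p = 0.173), and it lay between -0.62 and -0.19 without 1 library.

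**Figure D2:**
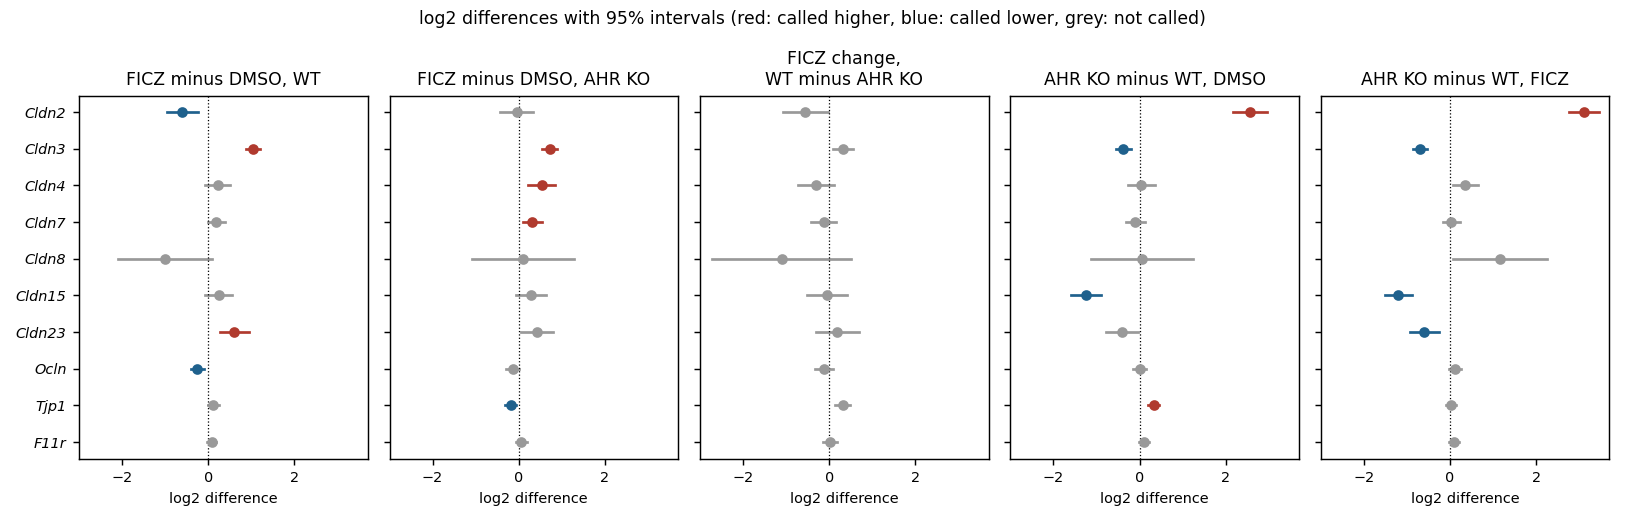
Differences on the log2(value + 1) scale for the 10 genes in the 5 contrasts, with points for the limma estimates and lines for their 95% intervals, red where called higher, blue where called lower and grey where not called. The genotype differences of Cldn2 (2.56 and 3.11) and Cldn15 (-1.25 and -1.201) lie farthest from 0, and Cldn3 has the highest FICZ changes (1.04 and 0.72).

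The called differences of the 3 members that are not claudins were at most 1.25-fold. Ocln encodes occludin, a membrane protein of the strands that regulates them. It stood at 1658 and 1614 in WT DMSO, at 1281, 1443 and 1403 in WT FICZ, at 1675 and 1603 in AHR KO DMSO and at 1517 and 1463 in AHR KO FICZ. All FICZ libraries lay below the DMSO libraries of their genotype. The change in WT was -0.25 (SE 0.06, interval -0.39 to -0.11, 1.19-fold lower, limma adjusted p = 0.0142). It was lost without WT DMSO replicate 2 (-0.23, adjusted p = 0.0964) or 3 (-0.27, adjusted p = 0.0561) and with the GC and length trend removed (-0.08, adjusted p = 0.391). In AHR KO the change was -0.14 (interval -0.29 to 0.02, adjusted p = 0.193). The genotypes differed by 0.00 under DMSO (interval -0.15 to 0.16) and by 0.12 under FICZ (interval -0.02 to 0.26), neither called.

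Tjp1 encodes ZO-1, the scaffold that binds claudins and occludin to actin. It stood at 12942 and 13509 in WT DMSO, at 13886, 14413 and 14853 in WT FICZ, at 17153 and 15962 in AHR KO DMSO and at 14556 and 14443 in AHR KO FICZ. The WT FICZ libraries lay above those of WT DMSO, and the AHR KO FICZ libraries lay below those of AHR KO DMSO. Under DMSO, Tjp1 was higher in AHR KO by 0.32 (SE 0.06, interval 0.20 to 0.45, 1.25-fold, limma adjusted p = 0.00696), a call lost without WT DMSO replicate 2 (0.29, adjusted p = 0.0682) or AHR KO DMSO replicate 1 (0.27, adjusted p = 0.0747). Under FICZ the genotypes differed by 0.01 (interval -0.10 to 0.13, adjusted p = 0.9). Tjp1 fell with FICZ in AHR KO (-0.19, SE 0.06, 1.14-fold, limma adjusted p = 0.0427), a call that was lost without any 1 of 7 libraries, all but WT FICZ replicates 1 and 2 (adjusted p = 0.0573 to 0.279) and with the GC and length trend removed (-0.13, adjusted p = 0.197), and that held in 8 of 20 alternatives in all. In WT its change was 0.12 (unadjusted p = 0.0436, adjusted p = 0.107), and it passed with the GC and length trend removed (0.17, adjusted p = 0.0441) and with quantile normalization (adjusted p = 0.0288). The difference between both changes was 0.31 (SE 0.08, interval 0.14 to 0.48) with an unadjusted p of 0.00246 and a limma adjusted p of 0.215 over all genes.

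F11r encodes the junctional adhesion molecule JAM-A. It stood at 6781 and 6383 in WT DMSO, at 7039.8, 6783 and 7015 in WT FICZ, at 6829.7 and 7303 in AHR KO DMSO and at 7325 and 7434 in AHR KO FICZ. It varied least within groups, with a coefficient of variation of at most 4.74%, and no contrast was called. Its differences lay between 0.01 and 0.10 in all 5 contrasts, and the widest interval bound was 0.23, for AHR KO against WT under DMSO.

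In counts of called genes, FICZ against DMSO in WT called 2 of the 10 members higher (Cldn3 and Cldn23), where 15.1% of all genes tested were called higher, and 2 lower (Cldn2 and Ocln), where 15.7% were. In AHR KO, FICZ called 3 members higher (Cldn3, Cldn4 and Cldn7) against 10.2% of all genes, and 1 lower (Tjp1) against 9.48%. AHR KO against WT under DMSO called 2 higher (Cldn2 and Tjp1) against 4.21%, and 2 lower (Cldn3 and Cldn15) against 4.83%. Under FICZ it called 1 higher (Cldn2) against 9.48%, and 3 lower (Cldn3, Cldn15 and Cldn23) against 10.5%. The interaction, which asks whether the FICZ change differs between genotypes, called 0 members by limma against 0.447% of all genes, and 3 members were under an unadjusted p of 0.05 (Cldn2, Cldn3 and Tjp1), as were 952 of all genes. The contrasts share libraries, so their calls are not independent of each other.

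The median log2 difference of the 10 members was 0.15 for FICZ in WT and 0.20 in AHR KO, where that of all genes was -0.01 in each. With the GC and length trend removed it was 0.039 in WT and 0.14 in AHR KO, where that of all genes was -0.0074 and -0.0059. For AHR KO against WT the median of the members was 0.02 under DMSO (-0.0069 with the trend removed) and 0.06 under FICZ, where that of all genes was -0.01 and 0.00. Of the 16 calls among the members, 7 held under all alternatives tried: both genotype differences of Cldn2 and of Cldn15, both FICZ changes of Cldn3 and the genotype difference of Cldn3 under FICZ.

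Levels can be set beside each other between genes only per length. Per kb of the longest transcript, Cldn7 had the highest mean of the members in every group and Cldn8 the lowest. In WT DMSO the order was Cldn7 (6341), Cldn3 (3280.2), F11r (2614), Tjp1 (1876), Cldn4 (1812), Cldn15 (656), Ocln (404), Cldn23 (77.9), Cldn2 (70.2) and Cldn8 (6.30). The ranges over libraries overlapped for Tjp1 with Cldn4 and for Cldn23 with Cldn2. In WT FICZ, Cldn3 rose to 6754 per kb (6065 to 7220), overlapping Cldn7 at 7258 (6674 to 8249) and exceeding it in replicates 1 (7220 against 6674) and 3 (6976 against 6853), while Cldn2 was at 46.6.

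In AHR KO DMSO, Cldn2 stood at 415 per kb (383 to 447) and overlapped Ocln at 404 (396 to 413), above Cldn15 at 275. F11r (2806) lay above Cldn3 (2514) there, and Cldn3 overlapped Tjp1 (2349). In AHR KO FICZ the order was Cldn7 (7401), Cldn3 (4151), F11r (2931), Cldn4 (2653), Tjp1 (2057), Cldn2 (399.8), Ocln (368), Cldn15 (345), Cldn23 (77.6) and Cldn8 (7.06), with the range of Cldn15 (272 to 417) spanning those of Cldn2 and Ocln.

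**Figure D3:**
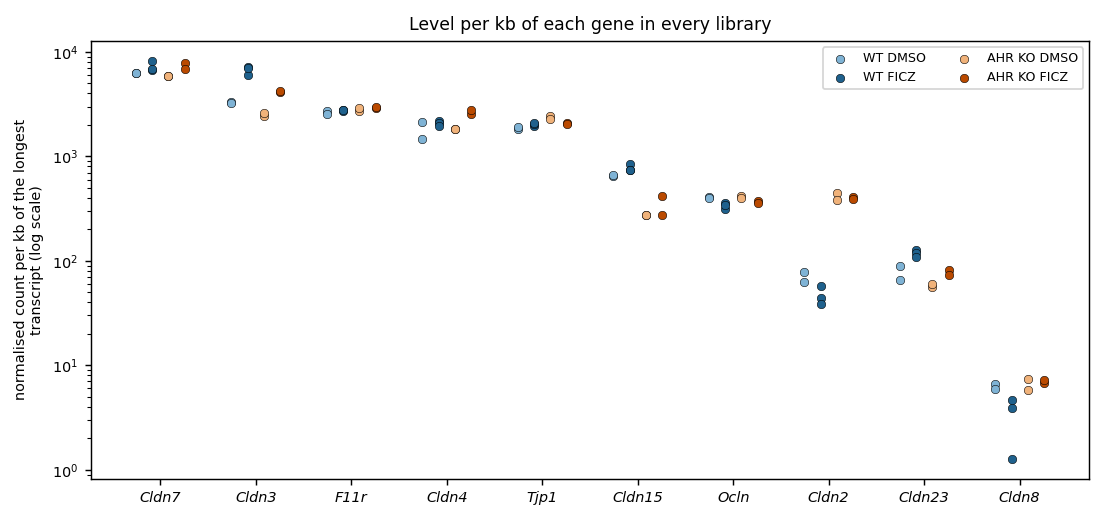
Normalised counts per kb of the longest transcript (log axis) for the 10 genes, with 1 point a library, coloured by group. Cldn8 is lowest in all libraries, Cldn7 is highest in all but WT FICZ replicates 1 and 3, where Cldn3 is, and the place of Cldn2 shifts from 70.2 per kb in WT DMSO to 415 in AHR KO DMSO.

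As a share of the summed per-kb level of the 9 claudins that passed the filter (the 7 members, Cldn1 and Cldn12), Cldn7 made up 49.8% in WT DMSO and 51.5% in AHR KO DMSO, and Cldn3 25.8% and 21.9%. With FICZ, the share of Cldn3 was 38.6% in WT and 26.7% in AHR KO. Cldn2 made up 0.553% in WT DMSO, 0.267% in WT FICZ, 3.61% in AHR KO DMSO and 2.57% in AHR KO FICZ, and Cldn15 made up 5.16%, 4.43%, 2.39% and 2.21% in the same order. The summed level was 12741 per kb in WT DMSO, 17525 in WT FICZ, 11502 in AHR KO DMSO and 15538 in AHR KO FICZ. Of the head-to-head pair, Cldn3 stood at 1.53 and 2.22 times Cldn4 per kb in the WT DMSO libraries and at 2.92 to 3.59 times in WT FICZ, against 1.33 and 1.41 in AHR KO DMSO and 1.63 and 1.51 in AHR KO FICZ. With the GC and length trend removed, the log2 FICZ changes in AHR KO were 0.27 for Cldn3, 0.32 for Cldn4 and 0.12 for Cldn7. In WT they were 0.57 for Cldn3, 0.013 for Cldn4 and -0.0055 for Cldn7. The sums, shares and ratios were computed without that correction. These shares and ratios are descriptions, with no test.

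**Figure D4:**
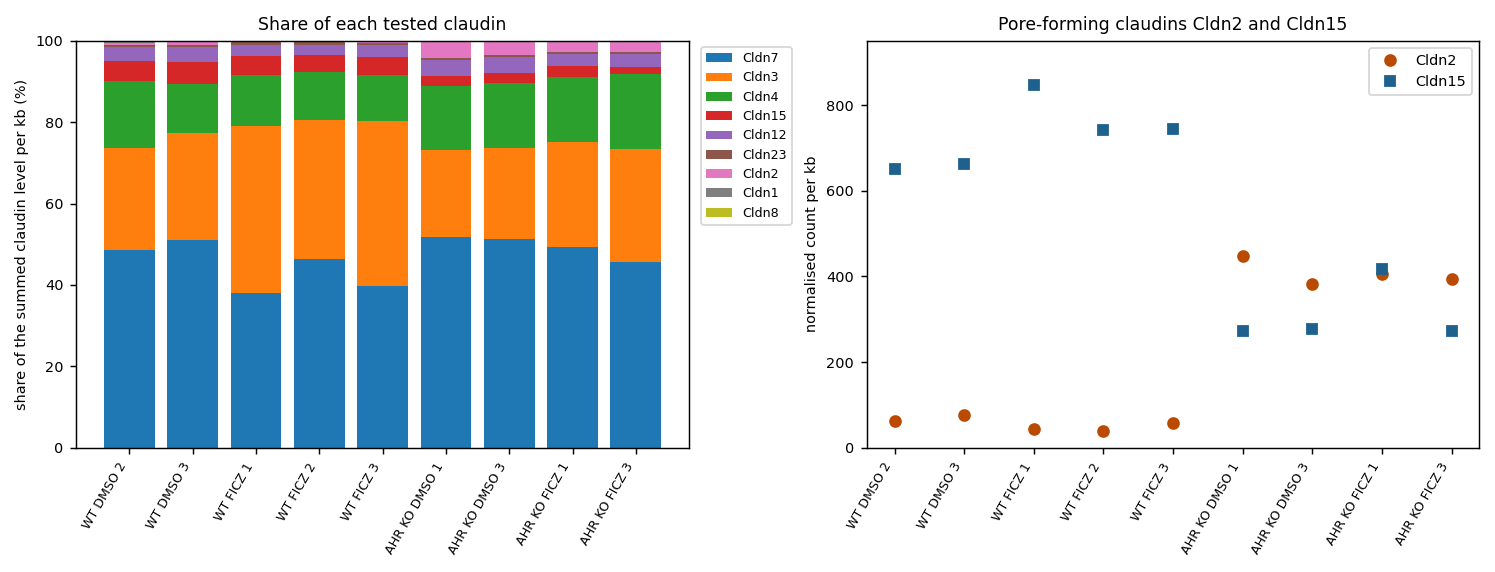
Share (%) of each of the 9 tested claudins in their summed level per kb, as stacked bars with 1 bar a library (left), and the normalised counts per kb of Cldn2 (circles) and Cldn15 (squares) in the same libraries (right). Cldn7 and Cldn3 fill most of every bar, and Cldn2 lies above Cldn15 only in AHR KO libraries, in all of them but AHR KO FICZ replicate 1.

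Of the 26 other claudins in the table, 16 were at 0 in all libraries and only Cldn1 and Cldn12 passed the filter. Cldn1 changed by -0.92 with FICZ in WT (limma adjusted p = 0.101) and Cldn12 by 0.06 (adjusted p = 0.558), and neither was called in any contrast. The medians of these 2 genes were -0.43 for FICZ in WT, -0.45 for AHR KO against WT under DMSO and -0.17 under FICZ.

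The partners of the members were read from 5 further lists of junction genes. Of the 101 genes of these 6 lists (other claudins included) in the table, 72 were tested. FICZ in WT called 17 higher (23.6%, against 15.1% of all genes) and 18 lower (25%, against 15.7%). FICZ in AHR KO called 11 higher (15.3% against 10.2%) and 9 of 72 lower (against 9.48%). AHR KO against WT called 8 higher (11.1% against 4.21%) and 6 lower (8.33% against 4.83%) under DMSO, and 12 higher (16.7% against 9.48%) and 11 lower (15.3% against 10.5%) under FICZ. The interaction called 1, where 0.447% of all genes were called. These shares carry no test. With the GC and length trend removed, FICZ called 7 higher and 16 lower in WT, where 1025 and 1288 of 12704 genes were called, and 3 higher and 8 lower in AHR KO, where 239 and 444 were. Of these calls, 16 of 35 for FICZ in WT, 6 of 20 for FICZ in AHR KO, 3 of 14 and 13 of 23 between genotypes and 0 of 1 for the interaction were kept whichever library was left out.

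Among the other membrane proteins of the tight junction, 10 of 15 were tested. FICZ called 3 higher and 0 lower in WT (15.1% and 15.7% of all genes), and 2 higher and 0 lower in AHR KO (10.2% and 9.48% of all genes), with medians of 0.02 and 0.07. With the GC and length trend removed, 1 was called higher in WT and 0 in AHR KO, against 1025 and 239 of the 12704 genes. Ildr1, a protein of the corners where 3 cells meet, rose with FICZ in WT from 3776 to 6438 (log2 difference 0.77, limma adjusted p = 0.000247). It was lower in AHR KO by a log2 difference of -0.99 under FICZ (adjusted p = 2.34e-05) and of -0.46 under DMSO (adjusted p = 0.00874), the last lost without WT DMSO replicate 3 or AHR KO DMSO replicate 3 (adjusted p = 0.0699 to 0.0912). The polarity protein gene Crb3 and Lsr, another gene of the tricellular corners, rose with FICZ in WT (0.36 and 0.23, adjusted p = 0.00394 and 0.00427) and in AHR KO (0.51 and 0.34, adjusted p = 0.0027 and 0.00267), calls that were lost with the GC and length trend removed (adjusted p = 0.0672 to 0.688). Cxadr, the coxsackievirus and adenovirus receptor, was higher in AHR KO by 0.41 under FICZ (adjusted p = 0.00383). Genotype called 1 of these 10 genes higher and 1 lower under DMSO (4.21% and 4.83% of all genes), and 2 higher and 1 lower under FICZ (9.48% and 10.5%).

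Of the 15 plaque and scaffold genes, FICZ in WT called 2 higher and 3 lower (15.1% and 15.7% of all genes), and FICZ in AHR KO 2 and 2 (10.2% and 9.48%), with medians of -0.14 and -0.08. These counts were 1 and 4 in WT and 0 and 3 in AHR KO with the GC and length trend removed. Of all 12704 genes under that setting, 1025 and 1288 were called in WT and 239 and 444 in AHR KO. AHR KO against WT called 3 higher and 1 lower under DMSO (4.21% and 4.83% of all genes) and 3 higher and 2 lower under FICZ (9.48% and 10.5%). Amotl1 and Amotl2, angiomotin-like scaffolds known to bind the Hippo effector YAP, were higher in AHR KO. Amotl1 averaged 528 in WT DMSO and 1094 in AHR KO DMSO (log2 difference 1.07, adjusted p = 0.00291), and differed by 1.53 under FICZ (adjusted p = 6.79e-05). Amotl2 differed by 1.11 under DMSO (adjusted p = 0.00293) and by 1.44 under FICZ (adjusted p = 0.000129). Tjp3, which encodes ZO-3, was lower in AHR KO by a log2 difference of -0.39 under FICZ (adjusted p = 0.00142). Cgnl1, the cingulin-like protein, fell with FICZ in WT (-0.56, adjusted p = 0.00108) and was higher in AHR KO by 0.54 under DMSO (adjusted p = 0.00539), lost without AHR KO DMSO replicate 1 (adjusted p = 0.0608), and by 0.87 under FICZ (adjusted p = 6.57e-05).

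Of the 24 regulators, FICZ in WT called 7 higher and 8 lower (15.1% and 15.7% of all genes), and FICZ in AHR KO 4 and 5 (10.2% and 9.48%), with medians of -0.05 and 0.06. These counts were 4 and 5 in WT and 3 and 3 in AHR KO with the GC and length trend removed. Of all 12704 genes under that setting, 1025 and 1288 were called in WT and 239 and 444 in AHR KO. AHR KO against WT called 2 higher and 3 lower under DMSO (4.21% and 4.83% of all genes) and 5 and 5 under FICZ (9.48% and 10.5%). Spint1, an inhibitor of membrane serine proteases such as matriptase, rose with FICZ in WT from 3520 to 6105 (0.79, limma adjusted p = 0.000121). It was the only gene of the 6 lists with a called interaction (0.65, adjusted p = 0.0222), and in AHR KO it averaged 2969.7 under DMSO and 3281 under FICZ. The call was lost without any 1 of 7 libraries, all but WT FICZ replicates 1 and 2 (adjusted p = 0.0548 to 0.147). Epcam, which binds and stabilises claudin 7, was lower in AHR KO under FICZ (-0.46, adjusted p = 0.00145) and under DMSO (-0.43, adjusted p = 0.00846), the latter lost without WT DMSO replicate 2 or AHR KO DMSO replicate 3 (adjusted p = 0.0807 to 0.0857). Mylk, the myosin light chain kinase that acts on the perijunctional actin ring, was higher in AHR KO by 1.05 under FICZ (adjusted p = 0.0035) and by 0.94 under DMSO (adjusted p = 0.0197), the latter lost without WT DMSO replicate 3 or either AHR KO DMSO library (adjusted p = 0.104 to 0.134). Pard3, which organises cell polarity, fell with FICZ in WT (-0.48, adjusted p = 0.000507) and in AHR KO (-0.32, adjusted p = 0.0104), the latter lost without AHR KO DMSO replicate 1 or AHR KO FICZ replicate 1 (adjusted p = 0.0556 to 0.0878). Its partner Pard6b was higher in AHR KO by 0.40 under FICZ (adjusted p = 0.00107).

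Adherens junctions and desmosomes lie below the tight junction. Of 11 adherens junction genes, FICZ called 1 higher and 4 lower in WT (15.1% and 15.7% of all genes) and 1 and 0 in AHR KO (10.2% and 9.48%), with medians of -0.11 and 0.01. These counts were 0 and 3 in WT and 0 and 1 in AHR KO with the GC and length trend removed. Of all 12704 genes under that setting, 1025 and 1288 were called in WT and 239 and 444 in AHR KO. Genotype called 1 higher and 1 lower under DMSO (4.21% and 4.83% of all genes) and 1 and 0 under FICZ (9.48% and 10.5%). Plekha7, an adherens junction protein, was the one called higher in AHR KO, by 0.35 under DMSO (adjusted p = 0.00426) and by 0.53 under FICZ (adjusted p = 7.13e-05). Of 10 desmosome genes, FICZ called 4 higher and 3 lower in WT and 2 and 2 in AHR KO, with medians of -0.04 and 0.04 and the same shares of all genes as above. With the GC and length trend removed these counts were 1 and 4 in WT and 0 and 1 in AHR KO. Of all 12704 genes, 1025 and 1288 were then called in WT and 239 and 444 in AHR KO. The rises of Pkp3, Jup and Evpl in WT were among those lost (limma adjusted p = 0.664, 0.866 and 0.654). Genotype called 1 higher and 0 lower under DMSO (4.21% and 4.83% of all genes) and 1 and 3 under FICZ (9.48% and 10.5%). Pkp3, plakophilin 3, rose with FICZ in WT (0.42, adjusted p = 0.000788) and in AHR KO (0.48, adjusted p = 0.00209), the latter also lost with that trend removed (adjusted p = 0.518). Dsg2 and Pkp4, a desmosomal cadherin and a plakophilin relative, fell with FICZ in WT (-0.32 and -0.31, adjusted p = 0.00479 and 0.0013) and in AHR KO (-0.27 and -0.31, adjusted p = 0.0239 and 0.00431). In AHR KO the Dsg2 call was lost without AHR KO FICZ replicate 3 or either AHR KO DMSO library (adjusted p = 0.0526 to 0.176) and with the GC and length trend removed (-0.22, adjusted p = 0.0844), and the Pkp4 call without AHR KO DMSO replicate 1 (adjusted p = 0.0536). Perp, a desmosome membrane protein, rose with FICZ in WT (0.39, adjusted p = 0.000527) and was lower in AHR KO under FICZ (-0.32, adjusted p = 0.00137).

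**Figure D5:**
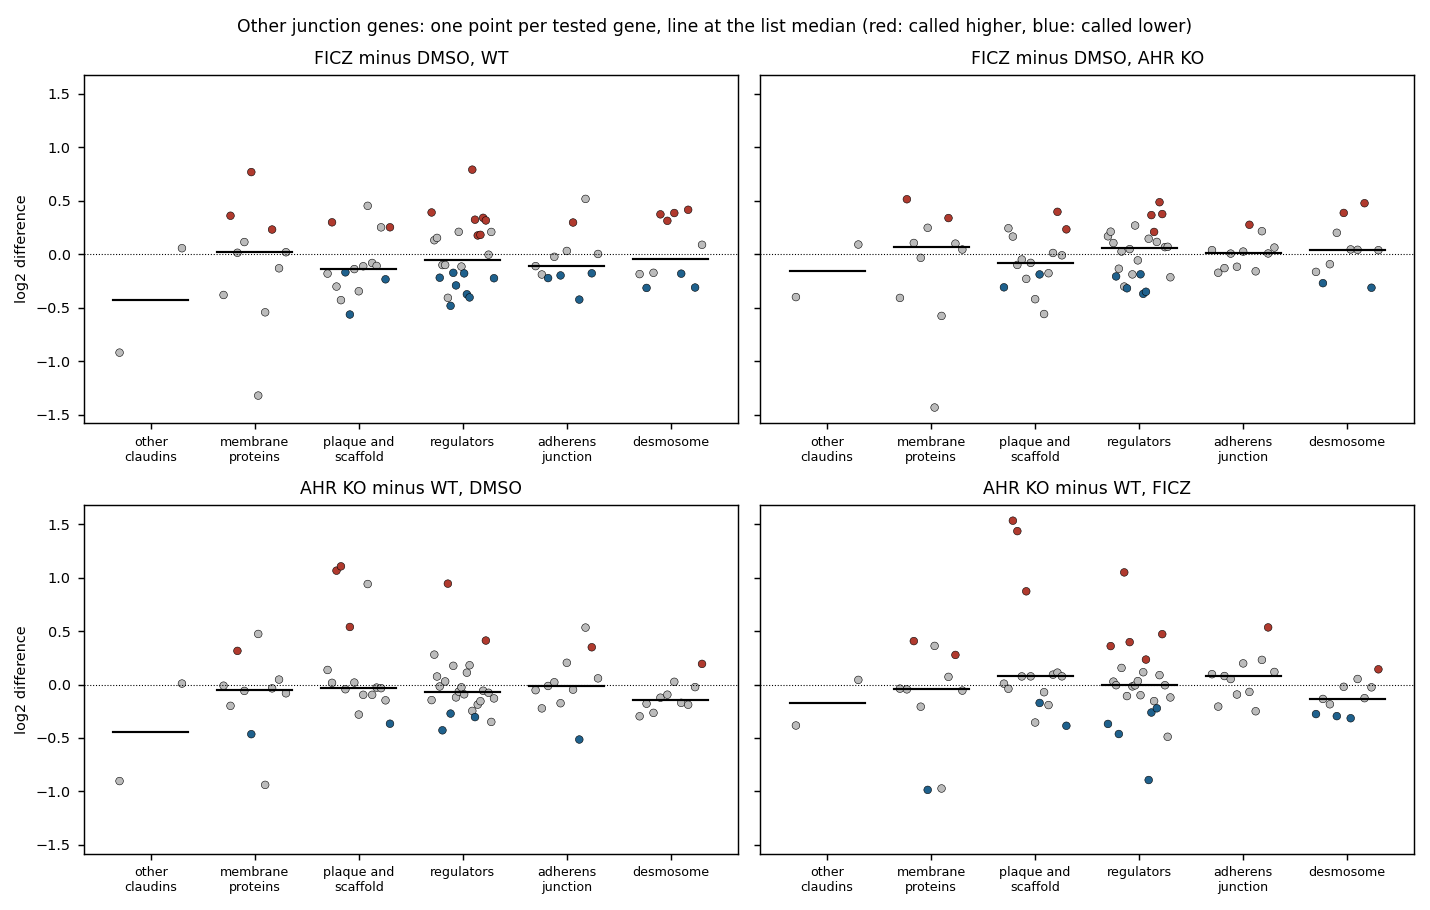
Log2 differences (limma, y axis) of the tested genes of the 6 other junction lists in 4 contrasts, 1 panel each, with 1 point a gene, red where called higher, blue where called lower and grey where not called, and a line at the median of each list. Amotl1 (1.53) and Amotl2 (1.44) are the highest called genes shown, in AHR KO against WT under FICZ.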

How the data were processed

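RNA-seq of 9 colon organoid libraries was read from 1 table of normalised counts deposited by the authors, a signal per Ensembl gene with values of 0 or more and fractions. The submitters' processing notes name STAR 2.5.2a, RSEM 1.2.31, DESeq2 1.16.1 and the build GRCm38, and the methods of the study another counting tool for stranded libraries. Which of these scaled the table is not stated. Reads per gene were not recovered, so no count model was applied.

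Groups and replicate numbers came from the sample descriptions, which match the column names of the deposited values. The sample titles number some of the libraries differently. Values were transformed as log2(value + 1), a scale that understates the change of low genes. The 12741 genes with a mean of 10 or more were fitted with limma 3.58.1 in R 4.3.3 (4 groups as coefficients, all 9 libraries, eBayes with trend, no block), and 5 two-sided contrasts were tested with Benjamini-Hochberg adjustment over all 12741 genes. A gene was called at an adjusted p under 0.05. Intervals are 95% intervals of that fit. The fit was tested on simulated data with independent noise and changes in WT FICZ only. These held no GC or length trend, so the test does not cover that trend. Symbols, loci and lengths came from GENCODE M21, and 99.3% of identifiers matched.

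The 10 genes and the 6 lists of junction genes were chosen with earlier results of these data known. Of each list, called genes among the 3 highest and 3 lowest differences of a contrast could be named, and Ahr and Cyp1a1 were read beside the labels. Alternatives were pseudocounts of 0.1 and 10, no filter, a mean of 100 or more, TMM, quantile normalization, only the groups compared, a line random effect, 2 replicate blocks, correction of each library for GC content and length by splines, and leaving out each library.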

Additional observations from a re-analysis of the deposited data

Results flagged for a closer look

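The FICZ change of Tjp1, the gene of the scaffold ZO-1, had opposite directions in both genotypes. All 3 WT FICZ libraries lay above both WT DMSO libraries (log2 difference 0.12), and both AHR KO FICZ libraries lay below both AHR KO DMSO libraries (-0.19). The difference between both changes was 0.31 on the log2 scale, with an unadjusted p of 0.00246 and a limma adjusted p of 0.215, so that it was not called over all genes. It lay between 0.26 and 0.36 whichever library was left out.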

How the results depend on the processing

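Of the log2 differences of the members under alternatives that kept all libraries, 492 kept their direction and side of the threshold, 13 lost and 6 gained a call and 4 reversed. The 4 were small: with the GC and length trend removed, the FICZ change of Cldn7 in WT was -0.0055, that of Ocln in AHR KO 0.037 and the genotype difference of Ocln under DMSO -0.027, and with quantile normalization the genotype difference of Cldn8 under DMSO was -0.041. GC and length removal left 2313 called genes for FICZ in WT (main 3928) and 683 in AHR KO (main 2509), where 35.0% were higher against 51.9%. In AHR KO it left 1 called member of 4, and no filter left 2. The cause was not tested.

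Without 1 library, called genes ranged from 1990 to 4133 for FICZ in WT, 420 to 2961 in AHR KO, 23 to 78 for the interaction, 389 to 1465 for genotype under DMSO and 1312 to 3084 under FICZ. Called members ranged from 1 to 5, 1 to 4, 0 to 0, 2 to 4 and 3 to 5. Directions turned for differences that were not called: FICZ in WT, Cldn4 (-0.055 to 0.50); FICZ in AHR KO, Cldn2 (-0.16 to 0.063), Cldn8 (-0.074 to 0.27) and Cldn15 (-0.013 to 0.60); interaction, Cldn15 (-0.36 to 0.25), Cldn23 (-0.025 to 0.41) and F11r (-0.034 to 0.063); genotype under DMSO, Cldn4 (-0.23 to 0.32), Cldn8 (-0.12 to 0.23) and Ocln (-0.030 to 0.034); genotype under FICZ, Cldn7 (-0.066 to 0.13) and Tjp1 (-0.013 to 0.036).

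Libraries with the same replicate number deviated together by r = 0.035 to 0.050 only, so the numbers were not taken as pairs. With the replicate block, 3412 genes were called for FICZ in WT, 2237 in AHR KO and 1052 between genotypes under DMSO, Tjp1 was lost for FICZ in AHR KO (adjusted p = 0.0774), and Cldn4 was gained between genotypes under FICZ (0.43, adjusted p = 0.0338). With the replicate block within line, Ocln was lost for FICZ in WT (-0.20, adjusted p = 0.0546) and Tjp1 for FICZ in AHR KO (-0.19, adjusted p = 0.05002). Cldn8, at 2.997 to 17.5 normalised counts, is the member that its level limits most.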
